A study of Mus musculus with 2931 samples.

Results

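The genes of vascular endothelial growth factor (VEGF) signalling were followed through the endothelium of the growing mouse lung. The 8 genes were taken by their symbols from the 18072 genes of the count table. They comprise the tyrosine kinase receptors Kdr (VEGFR2), Flt1 (VEGFR1) and Flt4 (VEGFR3), the co-receptors Nrp1 and Nrp2, and the ligands Vegfa, Vegfc and Pgf. All 8 were in the table, and each had reads in at least 61 of the 2931 cells. The cells were sorted one by one from mouse lung and sequenced on plates, without molecular identifiers. They carried endothelial subtype labels given by the authors. The mice were studied before birth at embryonic stage E18.5, and after it at postnatal days 1, 7 and 21, written P1, P7 and P21. All of these are labelled as normal in treatment, and a further P7 group was kept in hyperoxia, that is, in raised oxygen. The oxygen level, its duration and the mouse strain are not given in the sources used here, and no transgene or deletion is named. Each of the 5 groups had 1 female and 1 male mouse name, so n = 2 mice per group. Whether a name stands for 1 animal or a pool is not given either, so p-values measure the spread between these mouse sums only.

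VEGF-A acts mainly through Kdr, the chief signalling receptor of blood vessel endothelium, whereas Flt1 binds VEGF-A tightly with weak kinase activity and can act as a trap. Placental growth factor (Pgf) binds Flt1, and VEGF-C acts through Flt4, the receptor that drives growth of lymphatic vessels. Neuropilins bind both VEGF family ligands and class 3 semaphorins and pair with these receptors. In the alveolar wall, Car4+ capillary cells, also called aerocytes, lie beside general capillary cells without Car4.

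Cells of 1 mouse and 1 class were summed, and levels are given as CPM, the reads of a gene scaled to a common total of that sum. The labels Early and Late Car4- capillaries were taken as 1 class, the Car4- capillaries, of 1463 cells. This class changed in makeup with age: both P21 mice held almost only Late cells (268 of 272 and 265 of 268), and both P1 mice mostly Early cells (160 of 181 and 120 of 122). The endothelial markers Pecam1, Cdh5, Cldn5 and Tie1 summed to between 1555 and 11330 CPM in every sum of 5 or more cells, and none was at 0 throughout a class. The female mice had 161173305 to 331392982 reads and the male mice 56564316 to 235942067 reads. The male P7 mouse was the shallowest, with a median of 188610 reads per cell. Most cells came through a CD31 sort gate, and every CD31-gate cell of a given mouse was sequenced in a single run.

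The upstream sequences of 4 members are shown first: Kdr, Flt1, Vegfa and Vegfc. In every postnatal mouse, Kdr was higher and Vegfa and Vegfc were lower in Car4+ than in Car4- capillaries. Flt4, Nrp1 and Nrp2, not shown, also kept to the same side in every mouse, whereas Flt1 did not. The sequences are the 250 bases before the RefSeq start of transcription on GRCm38.p6, written 5′ to 3′ on the strand of the gene. Capitals mark GGAA on either strand (TTCC when read on the other), the core that ETS factors bind. For Vegfa, which has 2 RefSeq windows, the outer one is shown.
Kdr (chr5:75978456-75978705, minus strand): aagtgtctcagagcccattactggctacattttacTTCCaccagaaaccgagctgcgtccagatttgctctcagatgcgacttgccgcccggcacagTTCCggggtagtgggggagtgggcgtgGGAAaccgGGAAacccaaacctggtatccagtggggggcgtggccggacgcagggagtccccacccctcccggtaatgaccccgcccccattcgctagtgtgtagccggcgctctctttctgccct
Flt1 (chr5:147726012-147726261, minus strand): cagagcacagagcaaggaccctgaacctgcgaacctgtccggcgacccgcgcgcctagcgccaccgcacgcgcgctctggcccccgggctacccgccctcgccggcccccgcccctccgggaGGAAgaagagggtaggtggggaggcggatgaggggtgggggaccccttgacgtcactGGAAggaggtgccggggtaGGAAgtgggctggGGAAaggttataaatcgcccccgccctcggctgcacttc
Vegfa (chr17:46032378-46032627, minus strand): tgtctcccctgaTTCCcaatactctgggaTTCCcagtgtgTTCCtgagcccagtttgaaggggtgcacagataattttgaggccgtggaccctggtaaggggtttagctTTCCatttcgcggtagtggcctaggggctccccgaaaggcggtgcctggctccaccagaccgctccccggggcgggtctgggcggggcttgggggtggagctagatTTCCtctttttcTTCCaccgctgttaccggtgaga
Vegfc (chr8:54077282-54077531, plus strand): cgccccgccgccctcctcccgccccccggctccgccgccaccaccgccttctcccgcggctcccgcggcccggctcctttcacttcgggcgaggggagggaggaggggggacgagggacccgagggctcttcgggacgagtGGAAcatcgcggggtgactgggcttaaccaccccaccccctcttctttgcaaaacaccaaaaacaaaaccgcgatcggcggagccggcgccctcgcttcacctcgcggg
The Kdr and Flt1 windows held 4 GGAA matches each, the Vegfa window 6 and the Vegfc window 1. Of 32851 RefSeq windows of this length, 93.5% held at least 1 such match, with a mean of 2.91. The core of the hypoxia response element, ACGTG on either strand, which can share a base with GGAA, was in none of the 4 windows and in 16.6% of all windows. The other Vegfa window, which starts at 46025164 and is not shown, held 1 such core. These matches describe letters in a window and were not tested as binding sites.

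In GENCODE M21 on GRCm38, Kdr lies on chromosome 5 from 75932827 to 75978458 and Flt1 on the same chromosome from 147561604 to 147726011, both on the minus strand. Nrp1 (128358604 to 128503363) and Vegfc (54077606 to 54187096) lie on the plus strand of chromosome 8. Flt4 is on chromosome 11 (49609263 to 49652739), Nrp2 on chromosome 1 (62703285 to 62818695), Vegfa on chromosome 17 (46016993 to 46032369) and Pgf on chromosome 12 (85166635 to 85177790). Counts were per gene, so exons, introns and isoforms could not be told apart.

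The VEGF genes were spread unevenly over the classes, although many neighbouring classes overlapped. Because the labels were made from the expression of the same cells, levels are described over mice and differences between labels get no test. Among the receptors, Kdr was by far highest in Car4+ capillaries, at 1219 to 3017 CPM over 8 mice with a median of 2263 CPM. That range did not overlap with the range of any other class. Nonproliferative embryonic cells (833 and 906 CPM), lymphatic cells (583 to 961 CPM) and proliferative cells (342 to 1050 CPM) came next and overlapped. Car4- capillaries held 374 to 861 CPM, arterial I cells 179 to 566 CPM and venous cells 267 to 859 CPM, again overlapping. Proliferative venous cells (124 and 132 CPM) and arterial II cells (12.8 to 112 CPM) were lowest.

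**Figure D1:**
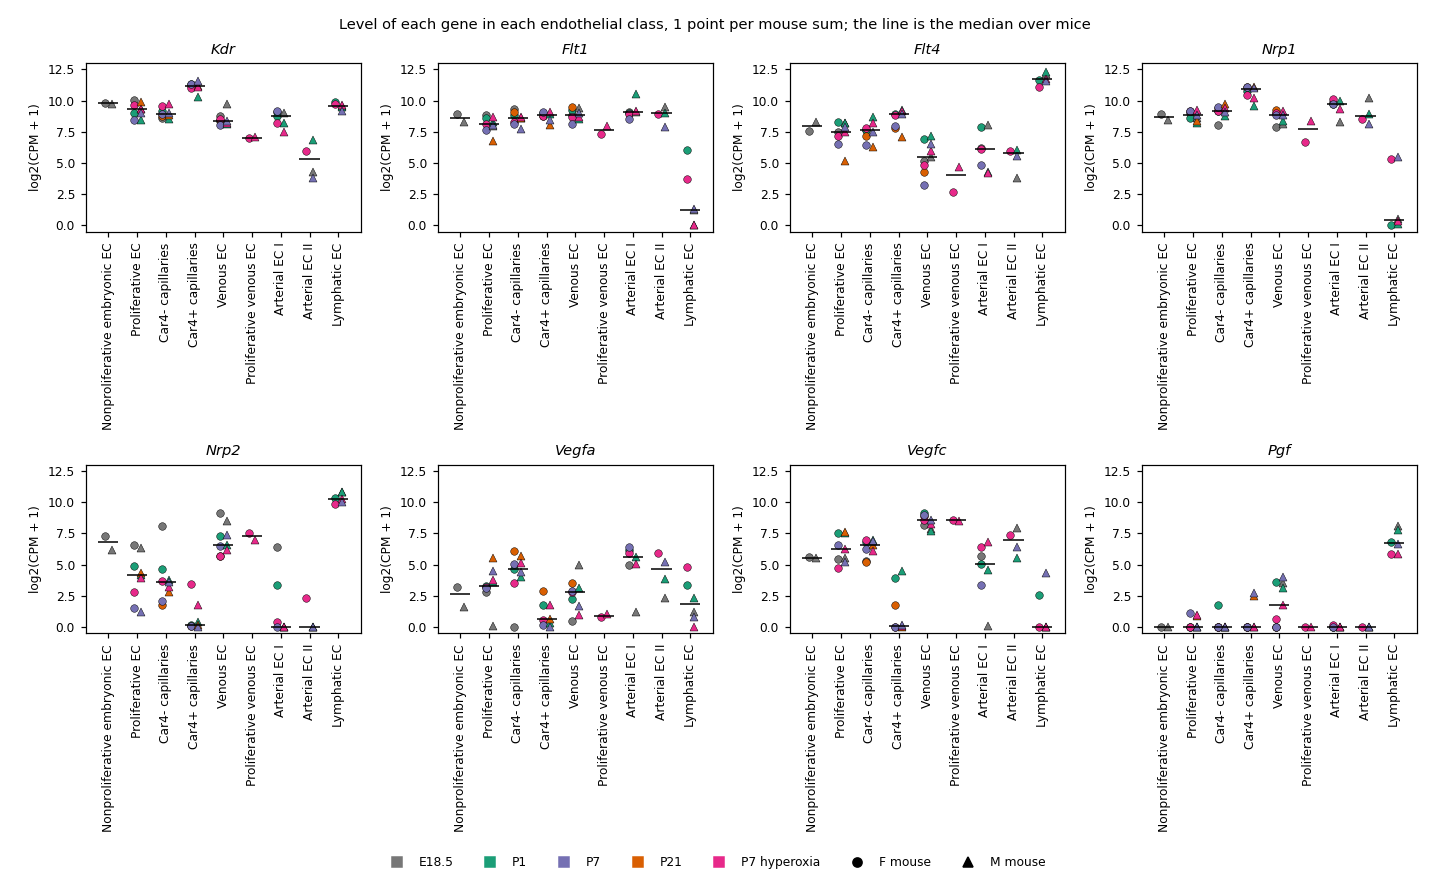
Level of each of the 8 genes, as log2(CPM + 1) of the reads summed per mouse (vertical axis), in 9 endothelial classes (horizontal axis). Each point is 1 mouse sum of 5 or more cells, coloured by group, with circles for female and triangles for male mice, and the line is the median over mice. Kdr stands highest in Car4+ capillaries, Flt4, Nrp2 and Pgf in lymphatic cells, and Vegfc in both venous classes.

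Flt1, in contrast, was read in every class of blood endothelium. Arterial I cells held 375 to 1443 CPM of it and proliferative venous cells 158 and 243 CPM, without overlap. The Flt1 medians lay between 200.3 CPM in proliferative venous and 534 CPM in arterial I cells. Each class overlapped with its neighbour in the order down to the lymphatic cells. In the latter, Flt1 was at 0 reads in 2 of 6 mice, the male P1 and male hyperoxia mice. The other 4 had 1.30 to 63.9 CPM. The floor of 3 reads would be 0.172 and 0.750 CPM in the sums with 0 reads.

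Flt4 was highest in lymphatic cells. Its level there was 4379 CPM in the male E18.5 mouse, 3131 and 4861 CPM at P1, 2972 CPM in the male P7 mouse, and 2220 and 3469 CPM after hyperoxia. No other class reached that range: Car4+ capillaries followed with 136 to 611 CPM and a median of 475 CPM. Embryonic (185 and 307 CPM), Car4- (76.7 to 403 CPM) and proliferative cells (34.0 to 316 CPM) overlapped with them. Venous cells had 8.56 to 140 CPM.

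The neuropilins were laid out differently over the classes. Nrp1 was highest in Car4+ capillaries (764 to 2226 CPM, median 1924 CPM), followed by arterial I cells (313 to 1143 CPM) and Car4- capillaries (256 to 829 CPM), with overlap. In lymphatic cells it had 0 to 3 reads in 4 of 6 mice, and 38.3 and 44.2 CPM in the female hyperoxia and male P7 mice. Nrp2, the usual partner of Flt4 in lymphatic vessels, showed the opposite order between lymphatic cells and Car4+ capillaries. Lymphatic cells held 933 to 1804 CPM of Nrp2, above every other class. Other classes held both genes: venous cells had 49.3 to 557 CPM of Nrp2 and 232 to 605 CPM of Nrp1. Nonproliferative embryonic cells had 71.0 and 154 CPM of Nrp2 and 352 and 473 CPM of Nrp1. Car4+ capillaries had at most 5 reads of Nrp2 in each of the 6 mice kept in normal air. After hyperoxia they had 119 and 69 reads, or 9.95 and 2.32 CPM.

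All 3 ligand genes were scarce in Car4+ capillaries. Vegfa, the main ligand of Kdr, had a median of 0.542 CPM there and at most 6.18 CPM, in the female P21 mouse. The Vegfa median was 23.9 CPM in Car4- capillaries (0 to 67.3 CPM) and 47.6 CPM in arterial I cells (1.26 to 83.0 CPM). The latter was the highest median of the classes, although the ranges overlapped. Vegfc was highest in venous cells (201 to 542 CPM, median 372 CPM) and in the 10 proliferative venous cells of the hyperoxia mice (385 and 354 CPM). Arterial II cells had 45.3 to 238 CPM of Vegfc and Car4- capillaries 36.2 to 121 CPM. Car4+ capillaries had 13.8 and 21.7 CPM of Vegfc at P1, and 0 to 2.31 CPM at the later days and after hyperoxia. In lymphatic cells Vegfc was at 0 reads in 4 of 6 mice.

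Pgf was almost a lymphatic gene in these cells. It had reads in 61 cells in all, and the 82 lymphatic cells, 2.80% of all cells, held 59.5% of its 14986 reads. Lymphatic levels were 265 CPM in the male E18.5 mouse, 112 and 213 CPM at P1, 99.5 CPM in the male P7 mouse, and 56.1 and 57.7 CPM after hyperoxia. Venous cells were next at 0 to 14.7 CPM. Reads of Pgf were few and clumped: the 4 cells with the most held 50% or more of them, and 1 cell with the embryonic label from the female hyperoxia mouse held 4667.

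The male P7 lymphatic sum of 5 cells also held 2248 CPM of the mesenchymal markers Col1a1, Col1a2, Pdgfra, Pdgfrb and Dcn, against 0.250 CPM at the lowest in another lymphatic sum. Its part in the values of that sum was not tested. Its Flt4, Nrp2 and Pgf lay within the range of the other 5 mice. Its Nrp1 (44.2 CPM, others at most 38.3), Vegfc (18.7 CPM, others at most 4.73) and Kdr (583 CPM, others at least 704) lay outside it. The lymphatic marker list summed to 3944 to 6321 CPM in lymphatic cells, but also to 733 to 4024 CPM in Car4- capillaries, where Lyve1 led it. It reached 4969 CPM in arterial I and 4222 CPM in arterial II cells, again led by Lyve1.

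Per kilobase of exon, the levels of different genes can be set side by side only roughly. The length covers the annotated exons of all isoforms of a gene, and which isoforms were expressed is not known. In Car4+ capillaries the median was 250.7 CPM per kb for Kdr, 197 for Nrp1, 57.7 for Flt4 and 34.0 for Flt1. In Car4- capillaries Nrp1 (58.3 CPM per kb) and Kdr (52.6) were close, followed by Vegfc (38.6), Flt1 (28.5) and Flt4 (24.1). In venous cells the ligand Vegfc led with 152 CPM per kb, over Nrp1 (47.2), Kdr (36.5) and Flt1 (34.5). In lymphatic cells Flt4 (401 CPM per kb) led over Nrp2 (104 to 105), Kdr (85.4) and Pgf (36.5).

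Both kinds of capillary were compared within the same postnatal mouse. The sort gates entered in unequal shares: in the male P21 mouse, 44 of 77 Car4+ and 184 of 268 Car4- cells came through the CD31 gate. With CD31-gate cells alone, a setting added after the data were seen, each mouse's cells came from 1 run. Kdr was higher in Car4+ than in Car4- capillaries in 8 of 8 mice, by 2.02 ± 0.47 (SD, n = 8) on the log2(CPM + 1) scale. Nrp1 (1.40 ± 0.42) and Flt4 (1.04 ± 0.34) were likewise higher in 8 of 8 mice. Flt1 was higher in 6 and lower in 2, with a mean difference (0.28 ± 0.50) below its spread. Lower in Car4+ capillaries in 8 of 8 mice were Nrp2 (-2.44 ± 1.36), Vegfa (-3.80 ± 0.85) and Vegfc (-5.16 ± 1.89). For scale, 2.51% of all 12193 genes at 1 CPM or more were higher in all 8 mice and 9.45% lower. Pgf was below that level. In the CD31 gate alone the same 6 genes were on the same side in 8 of 8 mice, with Kdr at 2.00 ± 0.44, Nrp1 at 1.34 ± 0.46, Flt4 at 1.12 ± 0.32, Nrp2 at -2.20 ± 1.62, Vegfa at -3.75 ± 0.75 and Vegfc at -5.11 ± 1.99.

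**Figure D2:**
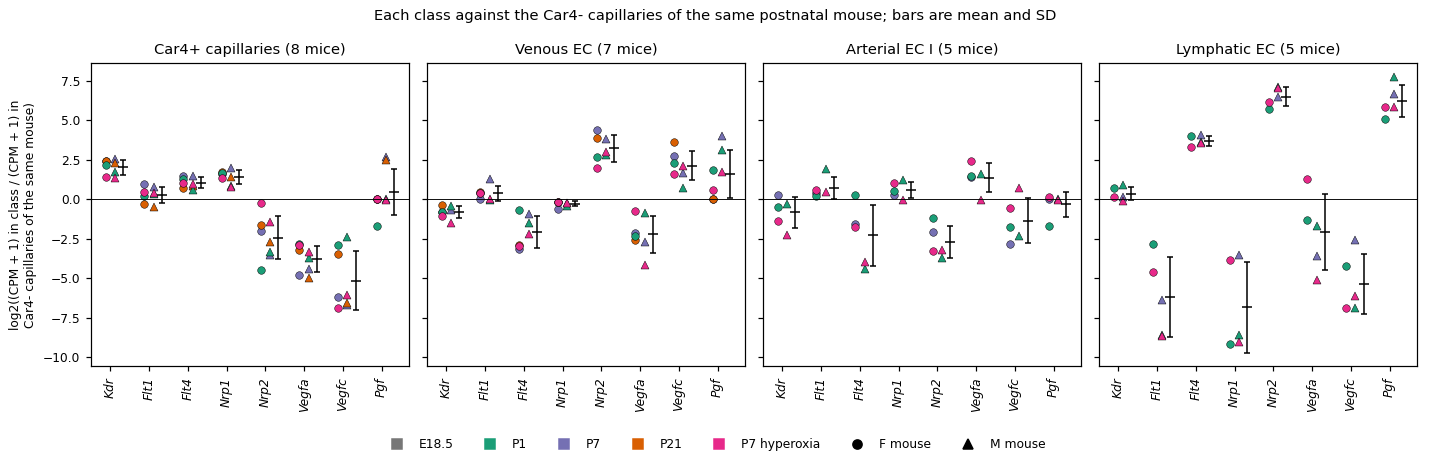
Difference between a class and the Car4- capillaries of the same postnatal mouse, in log2 of (CPM + 1) (vertical axis), for each gene (horizontal axis), in 4 classes. Points are mice, coloured by group, and the bars to their right give the mean and SD. In Car4+ capillaries Kdr, Flt4 and Nrp1 lie above 0 and Nrp2, Vegfa and Vegfc below 0 in all 8 mice.

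Venous cells differed from Car4- capillaries in another way. Vegfc (2.12 ± 0.92, SD, n = 7) and Nrp2 (3.21 ± 0.85) were higher in 7 of 7 mice. Kdr (-0.81 ± 0.40), Nrp1 (-0.29 ± 0.18), Flt4 (-2.06 ± 1.01) and Vegfa (-2.23 ± 1.17) were lower in 7 of 7. Over all genes, 4.06% were higher and 7.66% lower in all 7 mice. The receptor Flt1 was higher in 6 of 7.

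In arterial I cells, Flt1 was higher in 5 of 5 mice (0.71 ± 0.68) and Nrp2 lower in 5 of 5 (-2.71 ± 1.02), where 2.43% of genes were higher and 14.8% lower in all 5. Vegfa was higher in 4 of 5 (1.36 ± 0.91). Kdr (-0.83 ± 0.99), Flt4 (-2.30 ± 1.91), Nrp1 (0.59 ± 0.51) and Vegfc (-1.36 ± 1.44) were each on 1 side in 4 of 5 mice. The male P1 arterial I sum, with 1443 CPM of Flt1, held 2384 CPM of the venous marker list, against a class median of 617 CPM. In the male hyperoxia sum the Car4+ marker list was at 3059 CPM, against a class median of 349 CPM. The part of either was not tested.

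Lymphatic cells had Flt4 (3.69 ± 0.32, SD, n = 5), Nrp2 (6.49 ± 0.59) and Pgf (6.23 ± 1.01) higher, and Flt1 (-6.22 ± 2.54), Nrp1 (-6.84 ± 2.88) and Vegfc (-5.36 ± 1.89) lower, in 5 of 5 mice. The background there was 9.96% of genes higher and 14.2% lower in all 5. The size of the lower values depends on the added 1 CPM, since several lymphatic sums held 0 reads. In proliferative cells, only Nrp1 was on 1 side in all 7 mice (-0.45 ± 0.44), against 3.89% of genes higher and 6.94% lower. Kdr differed by -0.02 ± 0.51 there. The male P21 sum, of 7 cells with 900 CPM of the mesenchymal markers, stood apart, and without it Kdr differed by -0.20 ± 0.22 and Flt1 by -0.17 ± 0.27 in place of -0.41 ± 0.68 (n = 6).

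The share of cells with a read is a separate measure, and its order over classes was not always that of the CPM. Kdr was read in 84.6% of venous and 75.4% of Car4- cells, although its CPM was lower in venous cells in 7 of 7 mice. Those shares pool the cells of all mice, E18.5 included, whereas the 7 mice are postnatal with 5 or more cells of both classes. Each cell was thinned to 50000 reads, which left out 11 shallower cells, and the share before thinning stands in parentheses. Kdr was read in 98.8% (99.1%) of Car4+ and 75.4% (81.1%) of Car4- capillaries. Vegfa was read in 3.61% (11.1%) of Car4+ and 28.9% (40.3%) of Car4- capillaries, and in 43.0% (57.3%) of arterial I cells. Over single mice with 5 or more cells, the order of the last 2 classes was the other way. The thinned Vegfa share had a median of 22.2% in arterial I cells (0 to 75.0%) and 25.8% in Car4- capillaries (0 to 41.9%). Vegfc was read in 81.1% (87.7%) of venous cells, 19.1% (22.2%) of Car4- and 2.41% (4.52%) of Car4+ capillaries. Flt4 was read in all 82 lymphatic cells, Nrp2 in 95.1% (97.6%) and Pgf in 32.9% (39.0%), but Nrp1 in only 3.66% (12.2%) and Flt1 in 8.54% (15.9%). Median depths were 639300 reads per Car4+, 545100 per Car4- and 732600 per lymphatic cell. Vegfc was read in 2.44% (2.44%) of lymphatic cells, close to the pooled share in Car4+ capillaries. Over single mice the Car4+ share ran from 0 to 17.6%.

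**Figure D3:**
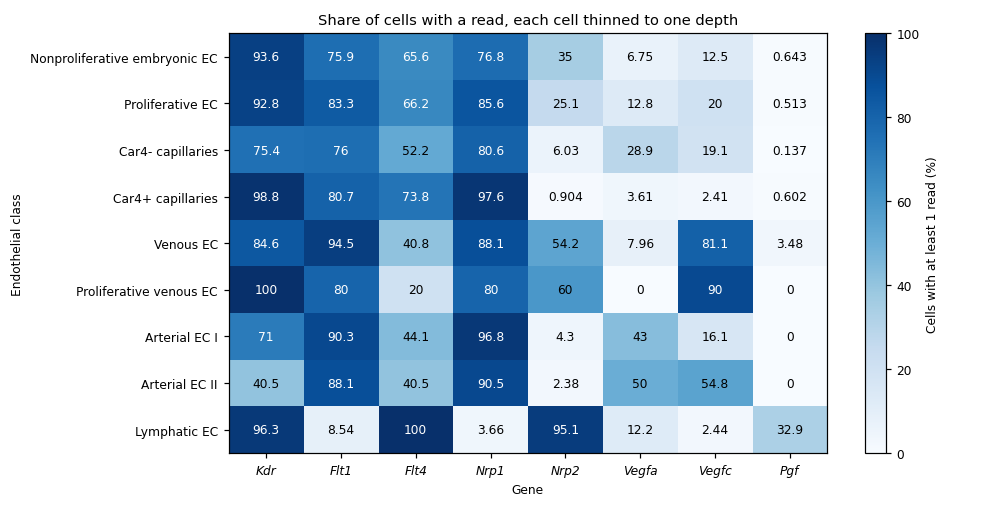
Percent of cells with at least 1 read of each gene (columns) in each endothelial class (rows), over all mice, with each cell thinned to 50000 reads. Darker blue is a higher share. The lymphatic row shows 100% for Flt4 and 3.66% for Nrp1, and the Car4+ row 98.8% for Kdr and 3.61% for Vegfa.

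The genes whose pattern over 48 mouse sums of 8 or more cells was most like that of a member are given as a description. The sums share mice and runs. A class far from the others, such as lymphatic cells for Flt4, can set much of the spread, and its part was not tested. For Kdr they were Chst1 (Pearson r = 0.78), Itgb5 (0.76) and Sirpa (0.75), out of 9144 genes. Nrp1 was most like Fendrr (0.91), Esam (0.89) and Adgrl2 (0.89), and Flt1 was most like Esam (0.88), Nrp1 itself (0.83) and Clec14a (0.82). Flt4 was close to Ttyh2 (0.81) and Mmrn1 (0.80). Nrp2 was closest to Fgl2 (0.78), Gnas (0.77) and Atp2b4 (0.75). Vegfa went with Sema3g (0.76), Tm4sf1 (0.74) and Hey1 (0.74), of which Hey1 is known as a target of Notch signalling. Vegfc went with the apelin receptor gene Aplnr (0.87), Foxp1 (0.85) and Samd5 (0.84). For Pgf they were Gprc5c (0.87), Pcsk6 (0.85) and Prox1 (0.85), the last of which encodes the transcription factor that sets lymphatic identity.

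Changes with age and oxygen were tested within each class, with edgeR's quasi-likelihood test on the mouse sums and Benjamini-Hochberg adjustment over all genes. The SE given with a log2 difference is its size divided by the square root of the F statistic. It therefore restates the test and is no separate estimate of error. In none of the 19 comparisons did a member pass an adjusted p of 0.05, over 146 tests of members in all. At an unadjusted p under 0.05, 19 of the 146 passed, against 5.83% of all tests over all genes. The share of all genes ran from 2.25% to 11.3% over the comparisons. limma on the mean CPM over cells called 0. DESeq2 called 6 of the 146. It called 1 member in proliferative cells from E18.5 to P1 (3.89% of all genes called) and 1 from P1 to P7 (4.68%), 1 in venous cells from E18.5 to P1 (4.37%), 1 around birth (3.82%) and 2 in the interaction of both kinds of capillary from P1 to P7 (0.741%). The values below therefore describe these mice, and no change with age or oxygen is claimed for a member. A sum over cells does not tell fewer cells that express a gene from less RNA per cell.

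Around birth, the nonproliferative embryonic cells of E18.5 were set against the Car4- capillaries of P1, a comparison in which the label changes with the age. Nrp2 stood at 154 and 71.0 CPM at E18.5 (female, male) and at 23.5 and 12.3 CPM at P1, a log2 difference of 2.60 ± 0.74 (SE), with an unadjusted p of 0.0031 and edgeR adjusted p of 0.230. Kdr stood at 906 and 833 CPM against 588 and 374 CPM (log2 difference 0.79 ± 0.36, adjusted p = 0.510 in edgeR). Both ligands were lower at E18.5: Vegfa at 8.22 and 2.07 CPM against 23.9 and 15.3 CPM, and Vegfc at 47.5 and 44.8 CPM against 108 and 121 CPM. Those 4 of the 7 tested members had groups that did not overlap, against 34.6% of all genes, and 0.494% of genes were called. Within the run that the female E18.5 and P1 mice shared, CD31-gate cells gave 154 against 24.1 CPM for Nrp2 and 906 against 589 CPM for Kdr.

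The step from E18.5 to P1 was also tested within 3 labels. In venous cells, Nrp2 stood at 557 and 356 CPM at E18.5 and 156 and 91.2 CPM at P1 (log2 difference -2.08 ± 0.61 SE, edgeR adjusted p = 0.429), and Kdr at 424 and 859 against 327 and 282 CPM. Of 8 members, 4 did not overlap, against 37.2% of genes, with 0.0162% called. In proliferative cells Nrp2 stood at 95.2 and 77.6 against 28.0 and 16.6 CPM, and Kdr at 1050 and 645 against 508 and 353 CPM. Vegfc there was lower before birth, at 42.0 and 44.1 CPM, than at P1, at 180 and 186 CPM (log2 difference 2.18 ± 0.71 SE, edgeR adjusted p = 0.545). Non-overlap was seen for 5 of 8 members, against 36.7% of genes, with 0 called over all genes (0%). The male P1 proliferative sum, of 9 cells, held 306 CPM of the mesenchymal markers, whose part was not tested. In arterial I cells 2 of 7 tested members did not overlap, against 30.7% of genes, with 0.0293% called, and Kdr stood at 534 and 500 CPM against 424 and 301 CPM.

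**Figure D4:**
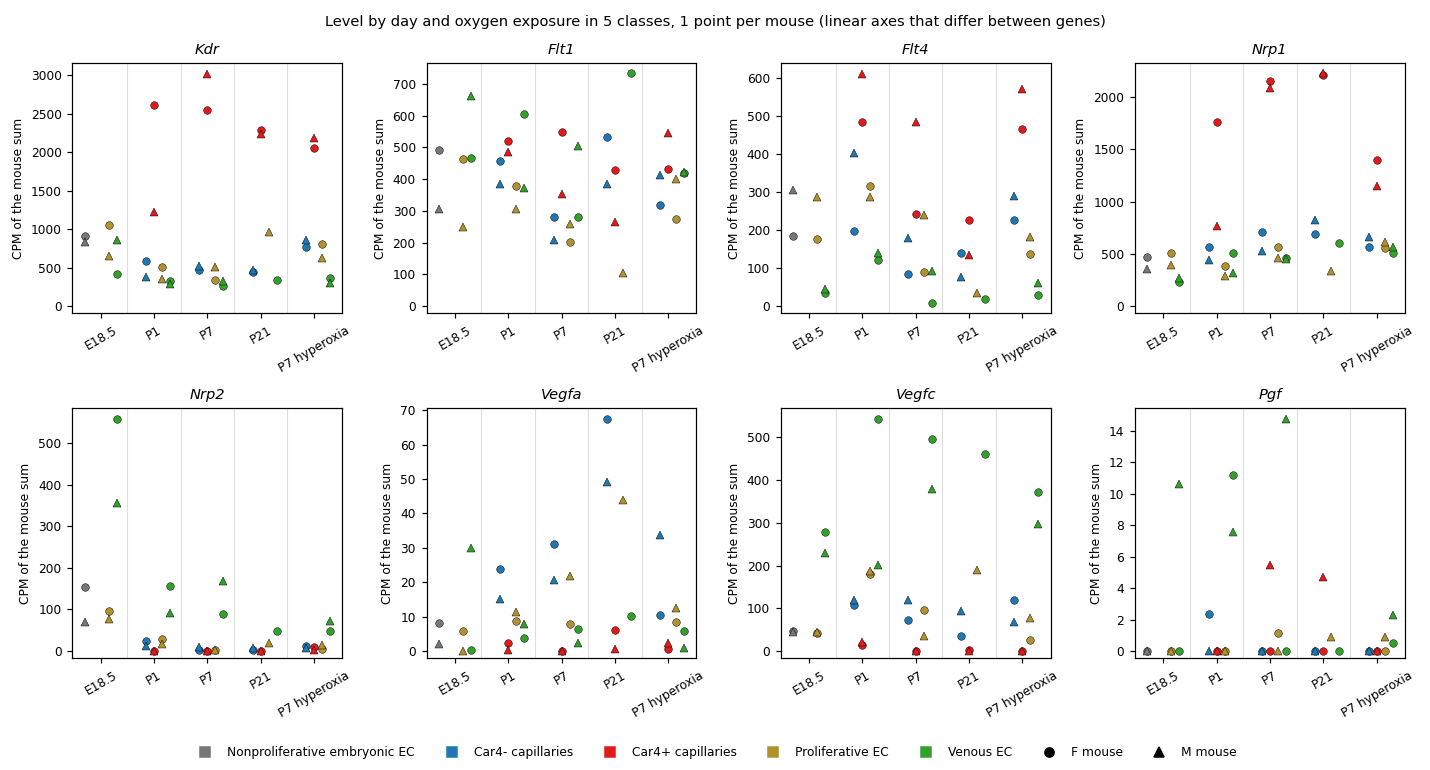
Level in CPM (vertical axis, linear, with a scale of its own for each gene) by age and oxygen exposure (horizontal axis) in 5 classes, given by colour; circles are female and triangles male mice. Nrp2 is highest at E18.5 in venous and proliferative cells, Nrp1 in Car4+ capillaries is lower at P1 and after hyperoxia than in the mice of P7, and Vegfa in Car4- capillaries is highest at P21.

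From P1 to P7 in Car4- capillaries, Flt1 went from 457 and 383 CPM to 281 and 208 CPM, a log2 difference of -0.88 ± 0.36 (SE; edgeR adjusted p = 0.408). Flt4 went from 198 and 403 CPM to 85.9 and 179 CPM (-1.35 ± 0.50, edgeR adjusted p = 0.392). The lymphatic marker list in the same sums was at 2071 and 2551 CPM at P1 and 827 and 733 CPM at P7, and its part was not tested. These and Nrp2 were the 3 of 7 tested members without overlap, against 40.2% of all genes, and 0% of genes were called. In Car4+ capillaries Nrp1 went from 1764 and 764 CPM to 2154 and 2083 CPM, and 4 of 8 members did not overlap, against 31.5% of genes, with 0% called. Besides Nrp1 these were Nrp2, Vegfa and Vegfc, each at 0.129 CPM or less in both P7 mice. In proliferative cells Nrp2 went from 28.0 and 16.6 CPM to 1.85 and 1.34 CPM (-3.90 ± 0.99, edgeR adjusted p = 0.417); 5 of 8 did not overlap, against 38.1% of genes, and 0% were called. Without the female P1 mouse, edgeR's adjusted p of that Nrp2 difference was 0.0239, and its size was -3.64, with only the male P1 sum of 9 cells left to stand for P1. That lone sum is assumed to vary like the other groups, so no spread at P1 stands behind this p. In venous cells 1 of 8 did not overlap, against 35.3%, with 0% called. No mice of P1 and P7 shared a run in the CD31 gate, so run and age cannot be told apart here.

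From P7 to P21, Vegfa in Car4- capillaries was 31.1 and 20.6 CPM at P7 and 67.3 and 49.1 CPM at P21 (log2 difference 1.27 ± 0.62 SE, edgeR adjusted p = 0.499). The arterial marker list in these sums was at 900 and 890 CPM at P7 and 1395 and 1249 CPM at P21, and its part was not tested. Flt1 was 281 and 208 CPM against 533 and 384 CPM (1.01 ± 0.36, edgeR adjusted p = 0.355). In the male mice, which shared a run, CD31-gate cells held 20.9 CPM of Vegfa and 243 CPM of Flt1 at P7, and 49.9 and 444 CPM at P21. Of 7 members 3 did not overlap, against 41.2% of genes, and 0.266% of all genes were called. The step coincides with the change from mostly Early to Late labels. Within the female P7 mouse, 162 Early cells held 27.6 CPM of Vegfa and 44 Late cells 54.7 CPM, while Flt1 was 285 and 256 CPM. In the female P1 mouse the order was the other way: 160 Early cells held 25.5 CPM of Vegfa and 21 Late cells 3.82 CPM. At P21 some cells came through a gate named mesench, and in the male mouse Vegfc was 136 CPM in CD31-gate and 35.6 CPM in mesench-gate Car4- capillaries; in the female mouse it was 33.9 and 49.6 CPM.

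In Car4+ capillaries, Flt4 was 243 and 485 CPM at P7 and 227 and 136 CPM at P21 (log2 difference -1.17 ± 0.55 SE, edgeR adjusted p = 0.858). Kdr was 2548 and 3017 CPM against 2292 and 2234 CPM, and Nrp1 stayed between 2083 and 2226 CPM in all 4 mice. Of 8 members 5 did not overlap, against 33.7% of genes, and 0.00814% of genes were called. The difference between both kinds of capillary in the step of Flt1 was -1.46 ± 0.47 (SE, edgeR interaction term, unadjusted p = 0.0148, adjusted p = 1), with 0% of genes called. For the step from P1 to P7, the interaction term called 0% of genes too. Vegfc had the lowest unadjusted p of a member there, 0.00067 (edgeR adjusted p = 1), with 13.8 and 21.7 CPM in Car4+ capillaries at P1 and 0 and 0.129 CPM at P7.

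The hyperoxia mice of P7 were set against the P7 mice in normal air. The Kdr levels of both kinds of capillary stood on different sides of those in normal air, and neither difference was called. In Car4- capillaries Kdr was 475 and 523 CPM in normal air and 767 and 861 CPM after hyperoxia (log2 difference 0.68 ± 0.34 SE, edgeR adjusted p = 0.887). Flt4 there was 85.9 and 179 CPM against 228 and 291 CPM (0.95 ± 0.49, edgeR adjusted p = 0.892), and Flt1 281 and 208 against 319 and 412 CPM. The lymphatic marker list in the same sums was at 827 and 733 CPM in normal air and 4024 and 3640 CPM after hyperoxia, and its part was not tested. These 3 of 7 members did not overlap, against 33.8% of genes, and 0.0136% were called. In Car4+ capillaries Kdr was lower after hyperoxia, at 2050 and 2182 CPM against 2548 and 3017 CPM (-0.68 ± 0.43, edgeR adjusted p = 0.768). Nrp1 was 1397 and 1149 CPM against 2154 and 2083 CPM (-1.00 ± 0.43, edgeR adjusted p = 0.731). The Car4+ marker list in these sums was at 8999 and 13500 CPM in normal air and 6385 and 8585 CPM after hyperoxia. The Car4- list was at 249 and 709 CPM against 815 and 920 CPM, and the part of either was not tested. Here 4 of 8 did not overlap, against 32.3%, and 0% were called.

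The difference of the hyperoxia differences of Kdr between Car4+ and Car4- capillaries was -1.29 ± 0.37 (SE; edgeR interaction term with mouse in the model, unadjusted p = 0.0084, adjusted p = 1). Over all genes 0% were called in that interaction, and none of 7 members tested. In the male mice of the shared run, CD31-gate Kdr was 511 CPM in normal air and 861 CPM after hyperoxia in Car4- capillaries, and 2587 and 2182 CPM in Car4+ capillaries. Nrp1 in the Car4+ cells of these mice was 1902 and 1149 CPM.

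In proliferative cells Nrp2 was 1.85 and 1.34 CPM in normal air and 5.93 and 14.5 CPM after hyperoxia (log2 difference 2.66 ± 0.94 SE, edgeR adjusted p = 1), and Kdr 342 and 508 against 804 and 630 CPM. The male normal-air sum held 165 CPM of mesenchymal and 129 CPM of smooth muscle markers, against at most 8.88 and 20.3 CPM in the hyperoxia sums, and their part was not tested. Of 8 members 3 did not overlap, against 33% of genes, and 0% were called. In venous cells Nrp2 was 88.2 and 168 CPM against 49.3 and 72.5 CPM, and Vegfc 497 and 378 against 372 and 297 CPM. There too 3 of 8 did not overlap, against 34.1%, with 0% called. The interactions of venous and of proliferative cells with Car4- capillaries called 0% of genes. The largest of them for a member at an unadjusted p under 0.05 was Flt4 in proliferative cells (-0.95 ± 0.32 SE, edgeR adjusted p = 1). In lymphatic cells after hyperoxia Flt4 was 2220 and 3469 CPM, with only 5 cells from 1 normal-air P7 mouse to set beside it, so no test was made.

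Other genes of the pathway were taken from 6 lists. In 18 of the 19 comparisons, no gene of any list passed the edgeR test. Around birth, where 0.494% of all genes passed, 3 of 11 tested neuropilin and plexin partners did. Plxnd1, a plexin that receives semaphorin signals in endothelium, was higher at E18.5 (243 and 202 CPM against 70.4 and 45.2 CPM, log2 difference 1.88 ± 0.39 SE, edgeR adjusted p = 0.0462). The semaphorin genes Sema3c (14.4 and 3.71 against 401 and 189 CPM, -5.09 ± 0.60, edgeR adjusted p = 0.00092) and Sema3g (8.20 and 6.86 against 66.8 and 59.9 CPM, -3.16 ± 0.56, edgeR adjusted p = 0.0198) were lower. The median of this list was -1.22 against -0.02 for all genes.

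Of 14 hypoxia-inducible genes, 2 passed in the same comparison, against 0.494% of all genes, and all 14 had values above 0 at E18.5 against P1, with a median log2 difference of 1.36. Egln3, an oxygen-sensing hydroxylase, was 132 and 72.5 CPM at E18.5, and 0.0486 and 0 CPM at P1 (edgeR adjusted p = 0.0011). Ankrd37 was 652 and 397 against 15.6 and 71.0 CPM (3.40 ± 0.69 SE, edgeR adjusted p = 0.0431). Vegfa, itself known as a gene that hypoxia can induce, had the opposite sign in the same cells, as given above. No call was made among the tested genes of the other 4 lists. These were 16 to 19 of 19 genes of VEGF receptor signalling, 14 to 18 of 18 genes known to respond to VEGF, 3 to 5 of 6 genes of VEGF-C processing, and 1 to 2 other VEGF ligands, depending on the comparison. At an unadjusted p under 0.05 in edgeR were 4.64% of the tests of signalling genes and 10.3% of those of response genes. The share was 15.8% for VEGF-C processing and 2.94% for the other ligands, against 5.83% over all genes.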

How the data were processed

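The cells were sorted by FACS and sequenced on plates with a transposase-based full-length protocol, per the labels' protocols. The authors deposited raw read counts per gene and cell. The submitters' processing notes name STAR 2.5.2b, HTSeq 0.10 and the build GRCh38, which is a human build although the cells are from mice; the build used is therefore not settled, and whether counting used strand is not given in the sources used here. Gene positions and exon lengths came from GENCODE M21 (GRCm38) and upstream sequences from RefSeq (GRCm38.p6).

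Subtype labels are the authors' own. Counts were summed per mouse name and class. Sums of 5 or more cells were described, and groups whose mice both had 8 or more cells were tested with edgeR 4.0.16 (quasi-likelihood test, TMM, filterByExpr, R 4.3.3) and Benjamini-Hochberg adjustment over all genes at 0.05. Alternatives were DESeq2 1.42.0, limma 3.58.1 with a pseudocount of 1 CPM, another normalization, no filter, CD31-gate cells alone, thinned cells, a block, at least 15 cells, and each mouse left out. The code was tested on simulated data. Without molecular identifiers, reads of 1 cell are not independent molecules.

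All 8 genes are named, with the 3 genes most like each by correlation (mean of at least 10 CPM) and the called genes of 6 lists. One gene that this rule names is not reported here. Members and lists were chosen with earlier results of these data known. No doublet caller was run.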

Additional observations from a re-analysis of the deposited data

How the results depend on the processing

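The count of members called was 0 in each of the 19 comparisons with edgeR. With DESeq2 it was 1 in proliferative cells from E18.5 to P1 (Vegfc) and 1 from P1 to P7 (Nrp2), 1 in venous cells from E18.5 to P1 (Nrp2), 1 around birth (Nrp2), and 2 in the interaction of both kinds of capillary from P1 to P7 (Vegfc and Pgf). Leaving out 1 mouse at a time gave 0 to 1 in proliferative cells from P1 to P7, where the call came without the female P1 mouse, and 0 in the other comparisons. The cause of these differences was not tested. Log2 changes were followed over the settings only for members with a low unadjusted p in edgeR. None of these reversed under any setting that was run. Members with a higher p, among them those with changes near 0, were not followed. Among settings added after the data were seen, the within-mouse differences with CD31-gate cells alone, and those of proliferative cells without the male P21 mouse, moved by less than 1 SD. The limit of 15 cells could not be run in 4 comparisons.

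With sex as replicate block, the count of members called was 0 in the 14 comparisons within or between labels. The letters F and M paired the mice weakly at most. The correlation of female minus male differences between groups ran from -0.0655 to 0.215 in Car4- and from -0.0412 to 0.0820 in Car4+ capillaries. In proliferative cells it ran from 0.00337 to 0.132, and in venous cells from 0.0237 to 0.203. Of 6 pairs of groups per class, 3 were over 0.1 in Car4- capillaries, 0 in Car4+ capillaries, 2 in proliferative and 1 in venous cells. The interactions already held the mouse in the model. With 1 female and 1 male mouse per group, the spread between mice limits every test, and small classes such as lymphatic cells allowed none.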

Other observations

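A single cell of the female hyperoxia mouse with the embryonic label held 4667 of the 14986 Pgf reads of the whole table. The 13 Car4- capillaries of the female E18.5 mouse, 12 of them labelled Late, held 268 CPM of Nrp2 and 0 reads of Vegfa, whereas the Car4- capillaries of the other 8 mice held 2.43 to 23.5 CPM of Nrp2.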
